A study of Mus musculus with 6 samples.

Results

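Malat1, Neat1, Meg3, Rian, Mirg, Miat, Gas5, Snhg1, Snhg11 and Tug1 are long noncoding RNAs (lncRNAs), transcripts that act as RNA or as hosts of small RNAs rather than as templates for protein. They were taken by gene symbol from tables of 35485 genes, all 10 were found, and they are described here in the mouse retina after injury to the optic nerve. The rule that chose them skips rows with an exon length of 0, and by that condition Snhg11 was the 1 gene kept. The tables give the other 9 no exons, so their exon reads and RPKM are 0 in every sample for want of an exon model, which says nothing of their level. Those 9 are described by gene reads, the reads inside the whole gene span, which the tables hold for all 10.

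RNA was sequenced from retinas of wild type C57BL/6 mice at 12 weeks of age, taken 2 days after surgery on the right eye. In the optic nerve crush group (ONC, called NC in the sample names) the nerve was crushed for 10 seconds 2 mm behind the globe, and in the sham group it was exposed but not crushed. Each group had 3 samples, and each sample was a pool of 6 retinas, so the spread between samples is one between pools. The whole retina was used, in which ganglion cells, the neurons whose axons form the optic nerve, are a small minority. The deposited positions match GRCm38, although mm9 is the build named for the mapping.

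Several of these RNAs stay in the nucleus. Malat1 gathers in nuclear speckles, which store splicing factors, Neat1 is the scaffold of paraspeckles, and Miat, also known as Gomafu, was described as an abundant nuclear RNA of retinal cells. Gas5, Snhg1 and Snhg11 carry small nucleolar RNAs (snoRNAs) in their introns, and their spliced RNA is left over once the snoRNAs are cut out. Meg3, Rian and Mirg lie in a row in the Dlk1-Dio3 imprinted region, are transcribed from the maternal chromosome and host snoRNAs and microRNAs. Tug1 was first found in the developing retina as a taurine-induced transcript.

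The promoters of 4 of these genes are shown because Malat1 and Gas5 were the 2 listed lncRNAs that differed between groups, Meg3 shares a motif with Gas5, and Snhg1 is another snoRNA host. Each is the RefSeq window of 300 bases on GRCm38.p6, from 250 bases before the transcription start to 50 after it, written 5′ to 3′ on the gene's own strand, with capitals for the motifs found. Malat1 is chr19:5802623-5802922 on the minus strand, Gas5 is chr1:161034916-161035215 on the plus strand (the second of its 2 RefSeq starts, which is the start of the Gas5 row in the tables), Meg3 is chr12:109540746-109541045 on the plus strand, and Snhg1 is chr19:8723237-8723536 on the plus strand.
Malat1: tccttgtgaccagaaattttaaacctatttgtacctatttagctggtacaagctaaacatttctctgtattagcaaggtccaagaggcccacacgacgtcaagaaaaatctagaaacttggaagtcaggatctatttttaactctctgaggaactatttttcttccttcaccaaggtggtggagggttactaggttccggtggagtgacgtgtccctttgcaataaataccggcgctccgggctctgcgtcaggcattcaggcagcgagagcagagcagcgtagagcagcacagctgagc
Gas5: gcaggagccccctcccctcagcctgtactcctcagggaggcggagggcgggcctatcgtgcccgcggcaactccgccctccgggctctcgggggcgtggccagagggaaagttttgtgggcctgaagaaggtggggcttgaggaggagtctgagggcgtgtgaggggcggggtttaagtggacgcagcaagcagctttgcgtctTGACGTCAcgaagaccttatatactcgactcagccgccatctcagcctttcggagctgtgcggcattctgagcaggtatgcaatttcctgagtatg
Meg3: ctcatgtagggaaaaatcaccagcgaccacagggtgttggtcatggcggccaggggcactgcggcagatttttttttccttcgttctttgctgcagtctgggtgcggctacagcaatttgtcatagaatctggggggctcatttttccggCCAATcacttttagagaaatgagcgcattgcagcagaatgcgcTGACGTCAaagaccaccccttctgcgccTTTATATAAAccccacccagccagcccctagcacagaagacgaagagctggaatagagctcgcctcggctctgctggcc
Snhg1: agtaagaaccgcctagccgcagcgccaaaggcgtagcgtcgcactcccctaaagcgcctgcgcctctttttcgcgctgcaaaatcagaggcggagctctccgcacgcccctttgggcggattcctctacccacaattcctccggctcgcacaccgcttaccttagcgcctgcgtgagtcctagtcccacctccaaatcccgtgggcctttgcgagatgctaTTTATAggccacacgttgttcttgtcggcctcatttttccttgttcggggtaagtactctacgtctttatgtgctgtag
The Gas5 window held the cAMP response element (CRE) TGACGTCA 46 bases before the start, and the Meg3 window held the same letters 57 bases before its start. The CRE was present in 1.79% of 32851 promoter windows of the same length. Gas5 began with CTTTCGGAGC, a cytosine followed by pyrimidines, as in the terminal oligopyrimidine (TOP) transcripts to which Gas5 is known to belong, and 2.51% of windows began with C and then 4 pyrimidines. Miat, whose window is not shown, began in the same way (CCCTTTGTGA), while the first RefSeq start of Gas5 did not (GAGCTCGACA). The Meg3 window also held TATAAA 25 bases before the start, its overlapping reverse complement 29 bases before it, and a CCAAT 100 bases before it. Snhg1 held the reverse complement of TATAAA 29 bases before its start. TATAAA occurred in 13.6% and CCAAT in 37.4% of windows, both strands searched. Malat1 held none of the motifs searched, which also included the AP-1 site TGANTCA (7.81% of windows) and the amino acid response element TGATGNAA (3.97%). The window of another RefSeq start of Meg3 (chr12:109545148-109545447), not shown, and that of the first Gas5 start held none either. Of the 10 symbols 9 had a promoter window, and Neat1 had none.

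Gene reads per sample ranged from 22989819 to 25940790, and values below are in CPM, the gene reads of a gene per 1000000 gene reads of the sample after TMM scaling, which sets the typical gene at no change. ONC replicate 1 and sham replicate 3 stood apart within their groups. The chi-square per degree of freedom between gene read counts left out the row named Esp38 and rows under 10 reads in the pair. It was 25.3 and 17.2 for ONC replicate 1 against replicates 2 and 3, which differed by 7.40. For sham replicate 3 it was 19.7 and 23.8 against replicates 1 and 2, which differed by 6.48. Sham replicate 3 had the lowest exon share and the highest Esp38 share of the ranges below, and without it 390 genes were changed in gene reads in place of 1029. Such a loss was not particular to it. Fewer were also changed without ONC replicate 2 (244), ONC replicate 3 (401) or sham replicate 2 (544), and more without sham replicate 1 (1098) or ONC replicate 1 (1844). ONC replicate 1 was the lowest of the 3 ONC samples for 7 of the 10 lncRNAs, and for 37.8% of the 16150 genes tested. Exons held 70.9% to 76.6% of gene reads in sham and 78.5% to 80.4% in ONC. The row named Esp38, whose reads all fall outside its exons, took 2.96% to 4.87% of gene reads in sham and 1.58% to 2.68% in ONC. Markers of rods (5 genes) summed to 67498 to 72002 exon CPM (the same from exon reads) in sham and 66289 to 73312 in ONC, so the tissue label was met. Ganglion cell markers (6 genes) were lower in every ONC sample, at 481 to 515 against 646 to 737, with 5 fallen and 1 risen. Microglia markers (4 genes) were at 17.5 to 19.6 in ONC and 10.8 to 14.8 in sham, with 1 risen. The 3 red blood cell markers summed to 42.5 to 56.5 in ONC and 64.2 to 131 in sham, with 1 fallen. Nearly all gene reads of the listed lncRNAs were uniquely mapped (at least 99.4%), apart from Snhg1, with 72.2% to 99.2%.

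At 2 days after ONC, Malat1 was lower and Gas5 was higher than in sham, and the other 8 did not pass the test. With edgeR's quasi-likelihood test over all 16150 genes, 2 of 10 were changed (adjusted p under 0.1), where 6.37% of all genes were changed, 1.97% higher (318 genes) and 4.40% lower (711 genes). Without TMM the split was 629 higher and 481 lower. Malat1 also passed the 1.5-fold threshold for DEGs, as did 1.56% of genes in the lower direction. At an unadjusted p under 0.05 there were 3 of 10, where all genes gave 17.9%. The median log2 fold change of the 10 was 0.09, beside 0.01 over all genes tested. By DESeq2, 3 of 10 were changed, where 8.19% of all genes were. Without ONC replicate 1 there were 4, with 3 higher and 1 lower, where 11.1% of all genes were changed, 3.92% higher and 7.23% lower. Without sham replicate 3 Malat1 alone was changed, where 2.36% of all genes were.

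**Figure D1:**
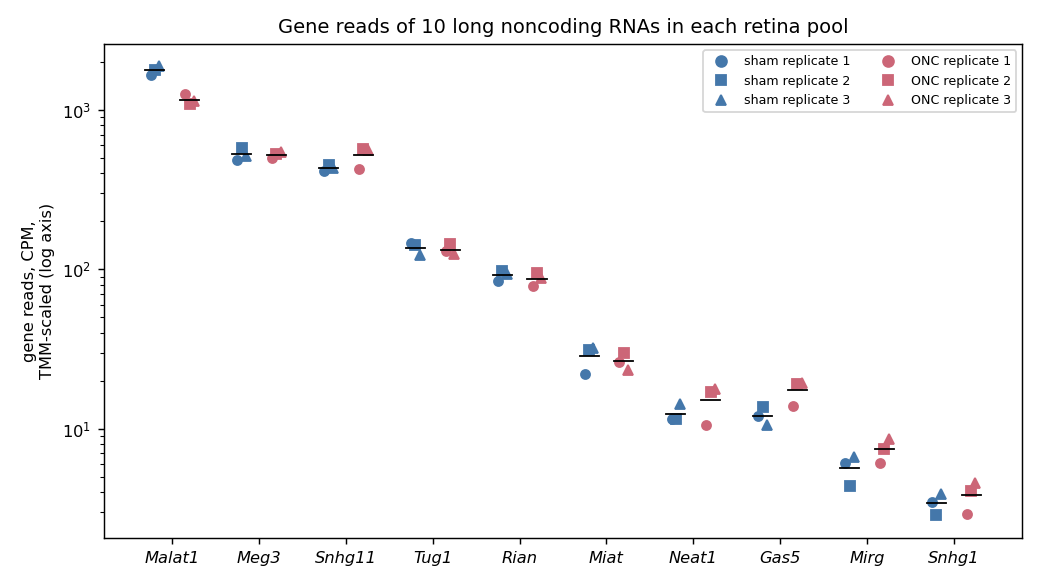
CPM of gene reads (TMM-scaled, log axis) of the 10 lncRNAs in each of 3 sham (blue) and 3 ONC (red) pools, with a black line at each group mean. The groups are apart for Malat1, with ONC below sham, and for Gas5, with ONC above sham, and overlap for the other 8.

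Malat1 (chr19:5795690-5802671, an unspliced RNA whose end is cut by RNase P instead of carrying a usual poly(A) tail) was the most abundant. Its CPM values were 1644, 1792 and 1873 for the sham samples, in the order of their numbers here and below, and 1250, 1096 and 1130 for ONC. All 3 ONC values were under the sham range, as was so for 11.5% of all genes. Malat1 fell by 34.5% (log2 fold change -0.61, SE 0.0749, adjusted p = 0.00068 by edgeR), from 1770 ± 116 (SD, n = 3) to 1159 ± 80.6 (SD, n = 3). Malat1 was changed in all 15 alternative fits of gene reads, at log2 fold changes from -0.66 to -0.54, and was past the 1.5-fold threshold in 11 of them, but not when the same reads were scaled by the reads outside exons alone, which gave -0.40 (SE 0.149, adjusted p = 0.192). In that test 2.70% of all genes were changed. Without sham replicate 3 the log2 fold change was -0.57 (adjusted p = 0.00312), short of 1.5-fold, and without ONC replicate 1 it was -0.66 (adjusted p = 0.000275). In a whole retina, fewer cells of a type and less RNA per cell cannot be told apart.

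The short RNAs Rmrp and Rpph1, from the list of other lncRNAs, and the Esp38 row, singled out after its values were seen, were lower as well. Rmrp and Rpph1 are not among the rows that RefSeq calls lncRNA. Rmrp, the RNA of RNase MRP, had CPM values of 17.6, 14.3 and 19.6 in sham and 10.3, 8.94 and 5.34 in ONC (log2 fold change -1.07, SE 0.207, adjusted p = 0.0145). Rpph1, the RNA of RNase P, had 21.5, 15.6 and 23.2 in sham and 12.0, 9.90 and 6.59 in ONC (-1.09, SE 0.202, adjusted p = 0.0119). Both short RNAs were lower in every ONC sample, as were 11.5% of all genes. They were named because they passed the test, so their separation gives no further support. The Esp38 row, nearly all of whose reads map to more than 1 place, had a log2 fold change of -0.98 (SE 0.212, adjusted p = 0.0253). With Esp38 left out of the table Malat1 was at -0.61. Of all 1430 tested rows with an exon length of 0, whose reads are counted outside exons only, 2.73% were lower and 0.629% higher, both smaller shares than over all genes, with a median log2 fold change of -0.04. The exon share of the libraries and the ganglion cell markers given above also separated the groups. The part of any of these in the Malat1 difference was not tested. Malat1, Rmrp and Rpph1 are RNAs without a usual poly(A) tail. The paper names a TruSeq RNA kit and no selection step, and how evenly such RNAs were captured was not tested.

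**Figure D2:**
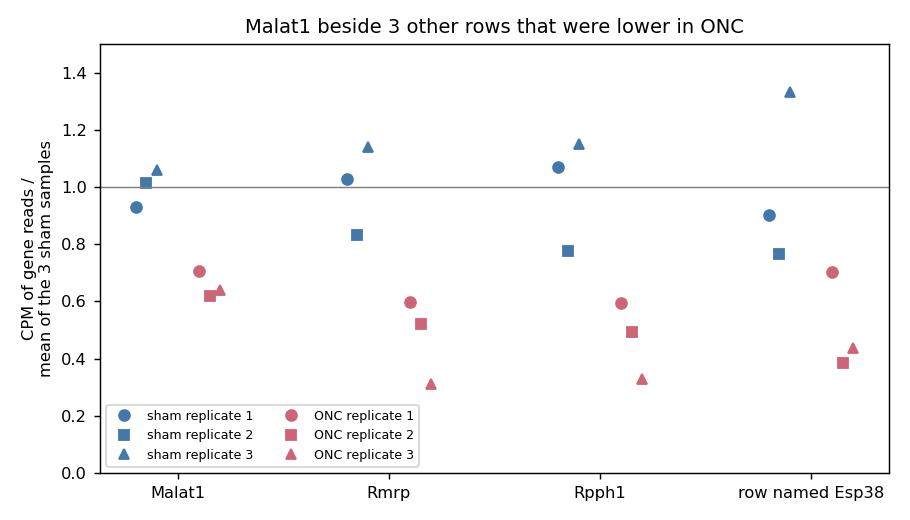
CPM of gene reads of Malat1, Rmrp, Rpph1 and the row named Esp38 in each sample, divided by the mean of the 3 sham samples (linear axis from 0), with sham in blue and ONC in red. All 3 ONC samples lie below all 3 sham samples in each of the 4 rows, as was so for 11.5% of all genes. The rows beside Malat1 were chosen as lower in ONC. Malat1 has the narrowest spread.

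Neat1 (chr19:5842302-5845478) lies close to Malat1 on chromosome 19, and its row spans 3177 bases, the 5′ end of the RefSeq gene. Reads from the rest of that gene, which RefSeq places at chr19:5824708-5845480, are not in the Neat1 values. The row had 11.54, 11.44 and 14.29 CPM in sham and 10.61, 17.01 and 17.78 in ONC. ONC replicate 1 was the lowest of all 6 samples and the other two ONC samples were the highest, so the groups overlapped. The log2 fold change was 0.29 (SE 0.182, adjusted p = 0.440), and without ONC replicate 1 it was 0.49 (adjusted p = 0.0617), which passed. This was the only 1 of 15 alternative fits in which Neat1 passed. Leaving out 1 sample gave 0.15 to 0.49, and the highest adjusted p of the 15 was 0.778. Miat (chr5:112213228-112228948) had 21.9, 31.2 and 32.3 in sham and 26.1, 29.9 and 23.3 in ONC. Sham replicate 1 was the lowest of the 6 and the groups overlapped, with a log2 fold change of -0.11 (SE 0.144, adjusted p = 0.742).

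Gas5 (chr1:161035166-161038537) is a host of box C/D snoRNAs whose spliced RNA is known to be short-lived while ribosomes translate it. It had 12.0, 13.7 and 10.6 CPM in sham and 13.9, 19.2 and 19.4 in ONC, from 243 to 526 reads per sample. All 3 ONC values were over the sham range, as was so for 11.8% of all genes, but ONC replicate 1 exceeded sham replicate 2 by little. Gas5 rose from 12.1 ± 1.54 (SD, n = 3) to 17.5 ± 3.12 (SD, n = 3), by a log2 fold change of 0.53 (SE 0.154, adjusted p = 0.0806 by edgeR), short of 1.5-fold. The call was close to the threshold. It held without ONC replicate 1 (0.68, adjusted p = 0.0157) and was lost without any other single sample, at adjusted p = 0.141, 0.102 and 0.264 on leaving out each sham sample in turn and at 0.317 and 0.263 without ONC replicates 2 and 3. With the replicate number as a block it was lost at 0.53 (adjusted p = 0.104), and with the library sizes of the exon reads at 0.49 (adjusted p = 0.111). Scaled by the reads outside exons, Gas5 was at 0.72 (SE 0.175, adjusted p = 0.0713), past 1.5-fold.

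Snhg1 (chr19:8723487-8726326), another snoRNA host, had the fewest reads of the 10, 68 to 125 per sample. Its CPM values were 3.47, 2.86 and 3.92 in sham and 2.90, 4.09 and 4.60 in ONC. The groups overlapped, with ONC replicate 1 at the level of the lowest sham sample (log2 fold change 0.18, SE 0.255, adjusted p = 0.764). At this depth the 95% interval of its log2 fold change ran from -0.32 to 0.68, which holds a 1.5-fold rise. These values are for total reads, and in uniquely mapped reads alone Snhg1 was at 0.37 (SE 0.274, adjusted p = 0.519).

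Snhg11 (chr2:158375638-158386145) was abundant, and is the 1 listed gene with exons in the tables, 5 exons of 5864 bases in all. It had 411, 454 and 435 CPM in sham and 424, 567 and 562 in ONC. ONC replicate 1 lay inside the sham range, whereas ONC replicates 2 and 3 were above every sham sample. The log2 fold change was 0.26 (SE 0.0972, adjusted p = 0.181). In gene reads it passed in 4 of 15 alternative fits, and the highest adjusted p of the 15 was 0.520. Those 4 were without TMM (0.34, adjusted p = 0.0907), by DESeq2 (0.25, adjusted p = 0.0942), with no filter on low counts (0.26, adjusted p = 0.00662) and without ONC replicate 1. In exon CPM it was at 529, 586 and 579 in sham and 524, 716 and 724 in ONC, and its RPKM was 68.6, 75.9 and 68.6 in sham and 70.0, 100.6 and 98.9 in ONC. The exon reads gave 0.21 (SE 0.0879, adjusted p = 0.218), and 6.09% of the 13670 genes in that test were changed. Exon reads did not pass by DESeq2 either (0.21, SE 0.151, adjusted p = 0.550). Nor did RPKM pass by limma, with adjusted p = 0.133 at a pseudocount of 0.1 and 0.128 at 1. Without ONC replicate 1 the difference passed, at 0.35 (adjusted p = 8.28e-06) in exon reads and 0.39 (adjusted p = 0.00287) in gene reads. That sample was the lowest of the ONC samples, so leaving it out raises the ONC mean. Without any other single sample the difference did not pass. Exon reads then gave 0.13 to 0.24 (adjusted p from 0.355 to 0.610) and gene reads 0.19 to 0.29 (adjusted p from 0.277 to 0.520). Scaled as RPKM is, by all reads on genes, the exon reads of Snhg11 also passed, at 0.34 (adjusted p = 0.0130), where the median of all genes was 0.13 rather than 0.01.

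The reads of Snhg11 were nearly all on its exons, 98.6% ± 0.0782 (SD, n = 3) in sham and 98.8% ± 0.176 (SD, n = 3) in ONC, with overlapping values (exact permutation test, two-sided p = 0.3, where 3 against 3 cannot go below 0.1). Reads across exon junctions were 4.93% to 6.85% of its exon reads per sample, beside 42.0% to 43.1% over all genes. The log2 fold change of reads outside exons was 0.26 (SE 0.199, adjusted p = 0.535), and the exon change exceeded the change outside exons by -0.07 (SE 0.159, adjusted p = 0.880), so no difference between them was detectable. In that comparison 0.0347% of genes were called.

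**Figure D3:**
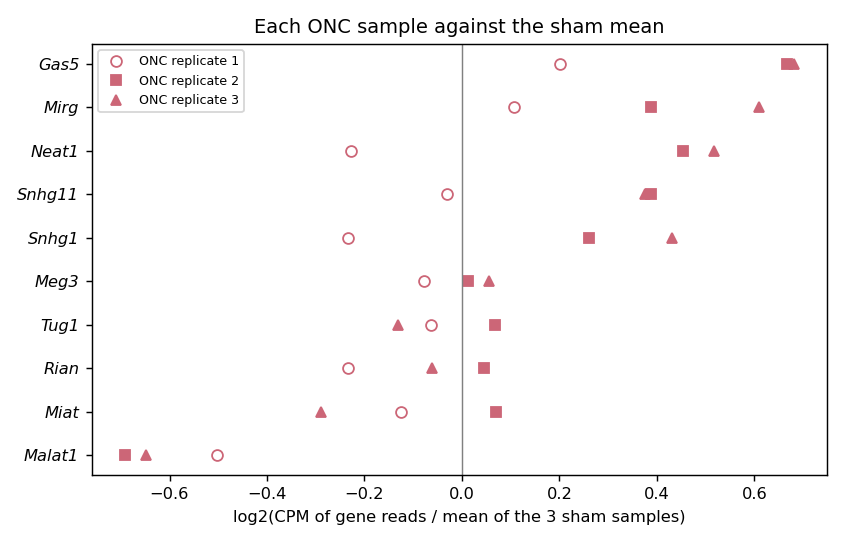
CPM of gene reads of each ONC sample over the mean of the 3 sham samples, on a log2 scale, for the 10 lncRNAs, with ONC replicate 1 as an open circle. Replicate 1 is the lowest of the ONC samples for 7 lncRNAs, and for Neat1, Snhg1, Snhg11 and Meg3 it lies below the sham mean while replicates 2 and 3 lie above it. In the order of replicates the values are -0.08, 0.01 and 0.06 for Meg3 and -0.03, 0.39 and 0.37 for Snhg11.

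Meg3, Rian and Mirg lie in this order on chromosome 12. Meg3 (chr12:109540996-109571729), the most abundant of the 3, had 486, 573 and 517 CPM in sham and 498, 530 and 547 in ONC. All ONC samples lay within the sham range (log2 fold change -0.00, SE 0.0725, adjusted p = 0.993, 95% interval -0.14 to 0.14). Rian (chr12:109603945-109661716), a host of box C/D snoRNAs, had 84.8, 98.3 and 93.2 in sham and 78.3, 95.0 and 88.2 in ONC. The groups overlapped, at -0.08 (SE 0.0838, adjusted p = 0.672). Mirg (chr12:109734981-109749458), a microRNA host, had 6.10, 4.37 and 6.62 in sham and 6.13, 7.45 and 8.69 in ONC. ONC replicates 2 and 3 were above the sham samples and replicate 1 was not, and the difference did not pass (0.38, SE 0.204, adjusted p = 0.351, 95% interval -0.02 to 0.78). The tables hold 10 microRNA rows inside Mirg, 2 inside Meg3 and 3 inside Rian, each at 0 reads in all samples, as were the other 7 rows inside Rian. A count of 0 at such short genes gives no level of the mature small RNAs.

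Tug1 (chr11:3639794-3648808) had 146, 142 and 123 CPM in sham and 131, 144 and 125 in ONC. The groups overlapped throughout (log2 fold change -0.04, SE 0.0800, adjusted p = 0.837, 95% interval -0.20 to 0.12), and that interval leaves out a 1.5-fold change either way.

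**Figure D4:**
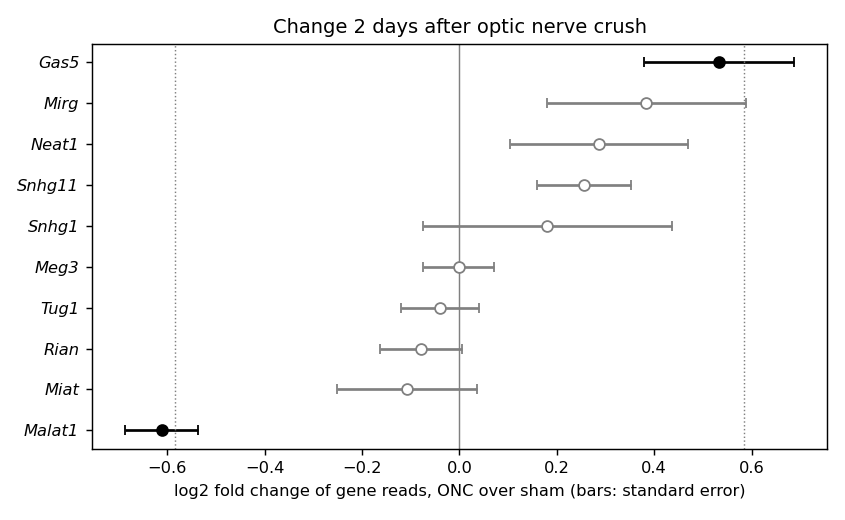
Log2 fold change of gene reads, ONC over sham, for the 10 lncRNAs, with standard errors as bars, filled points for adjusted p under 0.1 and dotted lines at 1.5-fold. Malat1 at -0.61 is the only point beyond a dotted line, and Gas5 at 0.53 lies just inside the other.

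Per kilobase of gene span, introns included, the sham level was 253 ± 16.6 (SD, n = 3) CPM for Malat1, 41.2 ± 2.04 for Snhg11, 17.1 ± 1.43 for Meg3, 15.2 ± 1.38 for Tug1 and 3.91 ± 0.509 for Neat1. It was 3.58 ± 0.457 for Gas5, 1.81 ± 0.363 for Miat, 1.59 ± 0.118 for Rian, 1.20 ± 0.188 for Snhg1 and 0.394 ± 0.0813 for Mirg. Neighbours in this order were separate in sham except Meg3 and Tug1, Neat1 and Gas5, and Miat and Rian, whose samples overlapped, and in ONC Rian and Snhg1 overlapped also while Meg3 and Tug1 did not. Span favours unspliced RNAs such as Malat1, since long introns dilute Meg3, Rian and Mirg on this scale.

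Among 1899 rows that RefSeq calls lncRNA, of which 1813 have an exon length of 0, Malat1 was rank 1, Meg3 rank 2, Snhg11 rank 3, Tug1 rank 7 and Rian rank 12 by gene reads in sham. Miat was rank 47, Neat1 rank 104, Gas5 rank 106, Mirg rank 192 and Snhg1 rank 276, so that the name abundant fits the first 5 better than the rest. Of the 657 other lncRNA rows tested, 5 were higher in ONC (0.761%) and 14 lower (2.13%), both smaller shares than the 1.97% and 4.40% of all genes, with a median log2 fold change of -0.04. Among the 21 lncRNA rows above a mean of 50 CPM, a limit chosen after the values were seen, 0 rose and 4 fell by edgeR, where 2.55% of all 4511 rows above that level rose and 8.14% fell. Besides Malat1 these were Otx2os1 (-0.51, adjusted p = 0.0121), the transcript opposite the photoreceptor gene Otx2, A230057D06Rik (-0.33, adjusted p = 0.0889) and A930015D03Rik (-0.33, adjusted p = 0.0573).

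**Figure D5:**
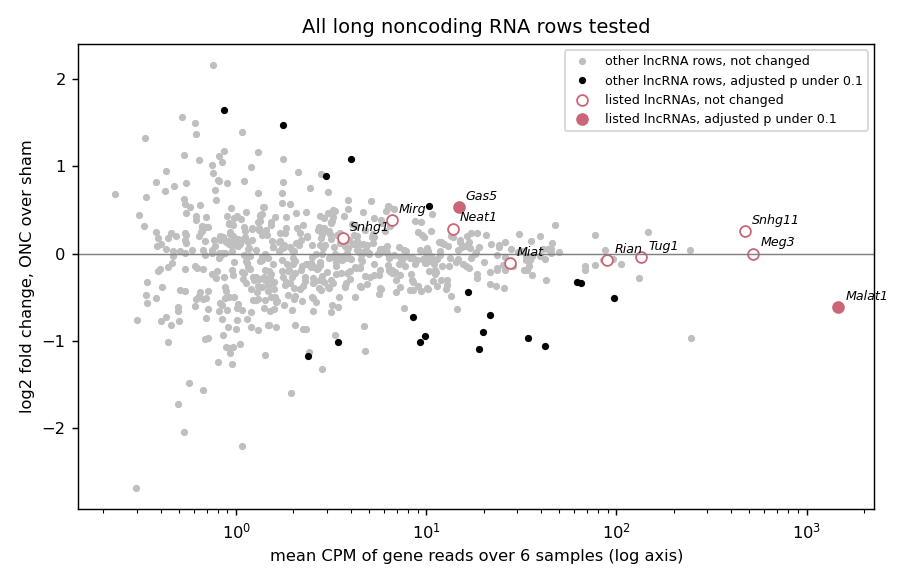
Log2 fold change of gene reads, ONC over sham, against the mean CPM of gene reads over 6 samples (log axis) for 667 lncRNA rows, with the 10 listed ones as red circles, filled where adjusted p was under 0.1. Malat1 is farthest to the right and lies below the 0 line, while most listed lncRNAs lie close to it.

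Other genes of the same kinds were counted from lists. Of 14 other noncoding snoRNA hosts 9 were in the tables and 8 were tested, and 0 were changed by edgeR or DESeq2 (2 at an unadjusted p under 0.05), with a median log2 fold change of 0.31. Snhg12 was at 0.45 (SE 0.160, adjusted p = 0.152), with 10.1, 8.33 and 8.71 CPM in sham and 10.0, 14.4 and 12.7 in ONC. Snhg8 was at 0.26 (SE 0.142, adjusted p = 0.371). Of 34 other lncRNAs and microRNA hosts 22 were in the tables and 16 were tested, and 5 were lower in ONC and 0 higher, beside the same 4.40% of all genes as above. They included Rpph1, Rmrp and Otx2os1 above and 2900097C17Rik (-0.23, SE 0.0716, adjusted p = 0.0986). Of those named, Otx2os1 alone is among the rows that RefSeq calls lncRNA. Otx2os1 had 105, 106 and 131 CPM in sham and 72.0, 82.7 and 86.4 in ONC.

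Proteins that work with these RNAs, and protein genes in or beside the Dlk1-Dio3 region, were read from the exon reads, in 7 lists with 55 genes tested. By edgeR 0 were changed, with 9 at an unadjusted p under 0.05 (16.7% of all genes), and DESeq2 called 1 (6.82% of all genes) and limma on log2 RPKM 8 (8.20%). Their median log2 fold change was 0.07, beside 0.01 for all genes, and the values ran from -0.18 for Fbl, the methyltransferase of box C/D snoRNAs, to 0.43 for Gar1, an H/ACA snoRNA protein. Under the scaling of RPKM 17 of them were higher in ONC, as were 11.02% of all genes, with the shift of the median noted for Snhg11. Without ONC replicate 1, 12 of the 55 were changed, 6 of them among the 12 nuclear speckle and SR proteins, where 15.0% of all genes were changed. In gene reads edgeR called 1 gene of a Miat-binding protein lower and 1 of a snoRNA protein higher, where 4.40% and 1.97% of all genes were.

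By list, the median log2 fold change was 0.07 for 11 paraspeckle proteins, the partners of Neat1, 0.08 for 12 nuclear speckle and SR proteins, 0.08 for 3 splicing proteins that bind Miat, 0.01 for 7 PRC2 subunits, 0.12 for 8 snoRNA proteins, 0.06 for 10 factors of nonsense-mediated decay and 0.04 for 4 protein genes in or beside the Dlk1-Dio3 region. Srsf5, a splicing factor of the SR family, was nearest to the threshold of the genes named, at 0.24 (SE 0.0783, adjusted p = 0.107). It had 316, 326 and 320 exon CPM in sham and 315, 419 and 400 in ONC, and as with Snhg11 the replicate 1 value lay apart from the other two ONC values. Nop56, a core protein of box C/D snoRNAs, had 66.5, 65.8 and 66.0 in sham and 71.2, 77.9 and 78.8 in ONC (0.20, SE 0.0711, adjusted p = 0.136). Sf1, a branch point binding protein, was at 0.13 (SE 0.0605, adjusted p = 0.276), and Hnrnpk, a paraspeckle protein, was at 0.07 (SE 0.0518, adjusted p = 0.528).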

How the data were processed

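RNA-seq libraries (TruSeq kit, HiSeq2000, paired reads) were made from 6 retina pools. Mapping was done by the authors in CLC Genomics Workbench to a genome named as mm9, and they deposited, per sample, raw counts of total and unique reads on each gene and on its exons, and RPKM values, which divide total exon reads by exon length and by all reads on genes. Of 29905 rows matched to RefSeq by symbol, 73.3% shared a start or end with GRCm38. Counting by strand is not given in the sources used here, so reads from a gene and its antisense partner cannot be told apart. Exon reads of rows with exon length 0 do not exist, so their junction reads are uncounted.

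Groups were taken from the treatment labels. Counts were compared with edgeR 4.0.16 (TMM, quasi-likelihood, condition only) in R 4.3.3, with Benjamini-Hochberg adjustment over all genes tested. Exon reads covered 13670 genes whose group mean RPKM exceeded 0.3 in either group, gene reads 16150 and reads outside exons (gene minus exon reads) 13391 genes kept by filterByExpr, and exon against outside-exon change 11533. The SE of a log2 fold change was its size over the square root of the F statistic, and 95% intervals were normal intervals from it. Changed meant adjusted p under 0.1, and DEGs were also more than 1.5-fold apart. Alternatives used DESeq2 1.42.0, limma 3.58.1 on log2 RPKM (pseudocounts 0.1 and 1), other scalings, filters, unique reads, a replicate block and leaving out each sample. Those of gene reads other than unique reads, block and left-out samples, and the block in the exon against outside-exon comparison, were chosen after seeing the data. The plan was to count all lists in exon reads, but the noncoding lists were counted in gene reads because their rows have no exons. The scripts were tested on simulated data.

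All 10 listed genes were named, and from each other list at most 4 changed genes by adjusted p and 2 unchanged ones by level, as well as the extreme values and the lncRNAs said to be chosen after their values were seen. The members and lists were chosen with earlier results of these data known. The exact tests were run in R 4.3.3, and Python 3.11.15 with matplotlib 3.10.9 served for figures. RNA was extracted per retina and combined into separate pools with a library each, so p-values measure the spread between pools.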

Additional observations from a re-analysis of the deposited data

How the results depend on the processing

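The number of listed lncRNAs changed in gene reads was 2, and 1 with the replicate number as a block or with the library sizes of the exon reads, where Gas5 was lost. It was 3 without TMM, with DESeq2 and without a filter, where Snhg11 was added. The number of genes changed in gene reads, 1029, was 601 with TMM over rows of exon length 0 and 1750 without a filter. The split of higher and lower genes, 318 and 711, was 216 and 1056 with the library sizes of the exon reads and 252 and 349 with TMM over rows of exon length 0. Leaving out 1 sample gave 244 (without ONC replicate 2) to 1844 (without ONC replicate 1) genes and 1 to 4 listed lncRNAs. In exon reads, 833 genes (325 higher, 508 lower) became 1730 (1507 higher, 223 lower) under the scaling of RPKM, and Snhg11 was then called, as 1 listed lncRNA, and also with no filter. Leaving out 1 sample gave 373 (without sham replicate 2) to 2049 (without ONC replicate 1) genes and 0 to 1 listed lncRNAs. Reads outside exons gave 361 genes, 1297 with the library sizes of the exon reads, and 0 to 915 genes and 0 to 2 listed lncRNAs on leaving out 1 sample. Exon against outside-exon change gave 4 genes, 10 with unique reads, 0 with exon library sizes, 0 with a replicate block and 0 to 29 on leaving out 1 sample. In exon reads the 7 protein lists gave 0 genes higher in ONC, and 17 under the scaling of RPKM.

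In gene reads, signs turned for Meg3 and Tug1. Meg3, at -0.0016 on the log2 scale, was at 0.00057 with the block, 0.075 without TMM, 0.044 with TMM over rows of exon length 0, 0.0017 without a filter, 0.0013 without Esp38 and -0.054 to 0.067 on leaving out 1 sample. Tug1, at -0.04, was at 0.033 without TMM, 0.0068 with TMM over rows of exon length 0 and -0.11 to 0.010 on leaving out 1 sample. The exon change of Snhg11 against its change outside exons, -0.07, was 0.19 with exon library sizes and -0.16 to 0.010 on leaving out 1 sample. For the 9 rows without exons the test of reads outside exons is the same reads under another scaling, and there Miat turned from -0.11 to 0.11, Rian from -0.08 to 0.12, Meg3 to 0.20 and Tug1 to 0.16, with Neat1 at 0.48, Mirg at 0.58 and Snhg1 at 0.37, of which none passed. The causes were not tested.

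The replicate numbers did not pair the samples. Deviations of same-numbered samples from their group means correlated at -0.017, 0.026 and 0.057, and the block left 813 genes changed in gene reads. Gas5, Mirg, Neat1 and Snhg1, with the fewest reads, are the least precisely known of the 10.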
